A study of Mus musculus with 12 samples.

Results

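The EGR, IER and DUSP response genes described here are 10 genes: Egr1, Egr2, Egr3, Ier2, Ier3, Ier5, Dusp1, Dusp4, Dusp5 and Dusp6. They were chosen by gene symbol, and their counts were taken by Ensembl identifier. They are 10 of 55401 genes in the count table, and all 10 were among the 18183 genes that passed the filter on low counts. RNA-seq was run on 12 libraries in 4 groups of 3. The labels give the cells as B16F10, an established mouse melanoma line. Control cells carried sgNC, a control guide RNA. The sgRnf19a cells carried a guide against Rnf19a, a gene for a RING-type ubiquitin ligase. Each kind of cell was either left untreated or taken 24 h into a treatment that the labels call IR and do not spell out. All 4 groups thus carried a guide. Whether each guide line was 1 clone or a pool is not stated in the sources used here, and neither is the origin of the replicates, so p-values measure only the spread between these libraries.

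Immediate early genes are transcribed from promoters that stand ready before a stimulus, so their messenger RNA can appear within minutes without new protein being made, and it is usually short-lived. Growth factors reach many of them through the kinase ERK, and stress reaches them through the kinases p38 and JNK, acting on serum response factor with its ternary complex partners, on CREB and on AP-1. EGR proteins are zinc finger transcription factors and IER proteins are short-lived regulators, while several DUSP proteins are phosphatases that remove the activating phosphates of ERK, p38 or JNK and so close a feedback loop.

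Promoter sequence was matched for 6 of the 10 members in RefSeq (GRCm38.p6): Egr2, Ier3, Ier5, Dusp1, Dusp5 and Dusp6. 3 of these windows are shown because their genes had higher counts after IR in control cells and because they hold known response motifs. Each window is the 250 bases before the RefSeq transcription start, read 5′ to 3′ on the gene's strand. This start can differ from the end of the gene span given below. The Dusp1 window lies inside its span, and the Dusp5 and Ier3 windows reach into theirs. Capitals mark TGACG or its reverse complement (the core of the cyclic AMP response element) in Dusp1 and Dusp5, CArG boxes (the binding motif of serum response factor) in Dusp5 and a kappaB site (the motif of NF-kappaB factors) in Ier3.
Dusp1: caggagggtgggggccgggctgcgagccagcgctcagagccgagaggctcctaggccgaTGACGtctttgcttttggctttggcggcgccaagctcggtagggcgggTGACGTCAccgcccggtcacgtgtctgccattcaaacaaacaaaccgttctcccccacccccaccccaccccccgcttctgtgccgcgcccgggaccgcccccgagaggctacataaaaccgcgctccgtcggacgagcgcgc
Dusp5: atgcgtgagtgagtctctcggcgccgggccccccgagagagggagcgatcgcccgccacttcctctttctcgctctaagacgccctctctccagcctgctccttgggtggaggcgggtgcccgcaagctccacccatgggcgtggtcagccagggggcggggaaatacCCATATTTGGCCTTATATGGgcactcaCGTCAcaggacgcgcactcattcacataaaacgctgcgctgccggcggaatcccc
Ier3: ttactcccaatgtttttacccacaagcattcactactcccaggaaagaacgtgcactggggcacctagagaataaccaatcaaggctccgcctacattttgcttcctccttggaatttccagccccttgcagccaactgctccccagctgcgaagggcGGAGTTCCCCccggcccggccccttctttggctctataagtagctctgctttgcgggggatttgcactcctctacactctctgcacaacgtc
The Dusp1 window (chr17:26508473-26508722, minus strand) held TGACG at bases 191 to 187 before the start, and again on both strands, in copies that share bases, between bases 143 and 136. The Dusp5 window (chr19:53528895-53529144, plus strand) held a pair of CArG boxes side by side, at bases 82 to 73 and 72 to 63, and a TGACG on the other strand at bases 55 to 51. The Ier3 window (chr17:35821463-35821712, plus strand) held the kappaB site at bases 92 to 83. Both strands were searched in 32851 RefSeq promoter windows of this length: 1.47% held a CArG box, 17.8% held TGACG and 7.25% held a kappaB site. Among the 6 matched members, 1 held a CArG box, 2 held TGACG and 2 held a kappaB site. GGGCGG, the motif of Sp1 factors, lay in 5 of the 6 and in 32.7% of all windows, and in the Ier3 window it overlapped the kappaB site. CCGGAA (12.0% of windows), the motif of ternary complex factors, TGANTCA (6.75%), the AP-1 motif, and GCGNGGGCG (4.7%), the motif of EGR factors, lay in none of the 6 matched windows. A match is a description of the letters and was not tested as a binding site.

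Untreated libraries held 62681644 to 71265107 counts and IR-treated libraries 34262483 to 45576326. The IR-treated libraries also had more ribosomal RNA (11.4 to 22.2% of counts against 0.408 to 0.813%). Their median level of protein-coding transcripts over 6 kb, relative to the median of those under 1 kb, was lower (log2 difference -0.86 to 1.04 against 1.78 to 2.83). This difference also separated the guides. After IR it ran from -0.86 to -0.74 in control and from -0.54 to 1.04 in sgRnf19a libraries. Without IR it ran from 1.78 to 2.59 in control and from 2.65 to 2.83 in sgRnf19a libraries. Each fold change was therefore also computed after a per-library correction for transcript length and GC content, and that value is given where it ends a call or moves a fold by over 1.5 times. Rnf19a messenger RNA did not differ detectably between the guides in untreated cells (log2 fold change -0.16, SE 0.36, adjusted p = 0.881), and it was higher in sgRnf19a than in control cells after IR (1.92, SE 0.38, adjusted p = 0.00352). It fell after IR in control cells (-2.24, SE 0.38, adjusted p = 0.000521), while in sgRnf19a cells no change was detected (-0.16, SE 0.36, adjusted p = 0.766). A guide can disrupt a protein without lowering its RNA, so these levels do not check the label. Of 8 melanocyte markers, 4 had 0 counts in all 12 libraries (Tyr, Tyrp1, Mlana, Slc45a2) and Mitf had 1.81 to 18.8 CPM (edgeR's counts scaled to a common library size). The other melanocyte markers were at or near 0, with Pmel at 0 to 0.446 CPM, Sox10 at 0 to 0.496 and Dct at 0 to 0.0878. Of the epithelial markers Krt8 had 135 to 582 CPM and Krt18 128 to 322, whereas Epcam had 0.708 to 2.503 and Cdh1 0 to 0.215. Summed CPM of the 4 epithelial markers, nearly all of it Krt8 and Krt18, was 642 to 743 in control, 760.0 to 842 in IR-treated control, 439 to 464 in sgRnf19a and 264 to 434 in IR-treated sgRnf19a libraries. For the 6 immune markers the sums were 12.6 to 31.5, 0.829 to 10.3, 20.9 to 50.6 and 9.20 to 22.2, with Cd3e at 0 in every library. Without IR, Lyz2 alone was higher with sgRnf19a (mean 29.6 CPM against 8.73 in control). Ptprc, Adgre1 and Itgam had lower means in sgRnf19a than in control libraries without IR. The labels name a melanoma line, yet of the 8 melanocyte markers only Mitf was clearly above 0. Whether the cells match their label was not tested. The part of these marker levels in the results was not tested. In bulk RNA, fewer cells expressing a gene and less RNA per cell cannot be told apart.

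The files place the 3 Egr genes on GRCm38 (mm10) at chromosome 18, 34859823 to 34864984 (Egr1), chromosome 10, 67535475 to 67542188 (Egr2) and chromosome 14, 70077203 to 70082614 (Egr3). Ier2 lies at chromosome 8, 84661331 to 84662854, Ier3 at chromosome 17, 35821684 to 35822923, and Ier5 at chromosome 1, 155096361 to 155099636. Dusp1 lies at chromosome 17, 26505590 to 26562128, and Dusp4 at chromosome 8, 34807297 to 34819894. Dusp5 lies at chromosome 19, 53529109 to 53542431, and Dusp6 at chromosome 10, 99263231 to 99267489. Each of these spans is the whole protein-coding gene, exons and introns together. The annotated span of Dusp1 overlaps Ergic1 on the opposite strand only at its far end, from 26561489 to 26562128. It also holds Gm8225 on the opposite strand (1309 counts in all) and Gm50275 on the same strand (35 counts). Whether the counting used strand is not given in the sources used here.

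Within untreated control cells the authors' FPKM values (fragments scaled by transcript length and library size), which allow genes to be compared per length, put Ier3 first at 154 ± 14.0 (SD, n = 3). Dusp6 (23.7 ± 1.41), Ier2 (21.6 ± 5.02), Dusp4 (19.9 ± 1.59), Dusp5 (16.5 ± 1.57) and Ier5 (16.0 ± 2.73) formed a middle group in which neighbours in the order differed by less than the sum of their SDs, except Dusp4 and Dusp5. Dusp1 (4.38 ± 0.0600), Egr3 (3.98 ± 0.916) and Egr1 (3.41 ± 0.341) followed, and Egr2 was last at 0.900 ± 0.0923. After IR the order in control cells was led by Ier3 at 235 ± 14.6 FPKM and Ier2 at 55.6 ± 1.76. In IR-treated sgRnf19a cells Dusp6 (27.6 ± 4.33 FPKM) stood second to Ier3 (205 ± 56.8), and Egr1 (13.2 ± 2.55) stood above Egr3 (0.927 ± 0.5005) and Egr2 (0.154 ± 0.0654).

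**Figure D1:**
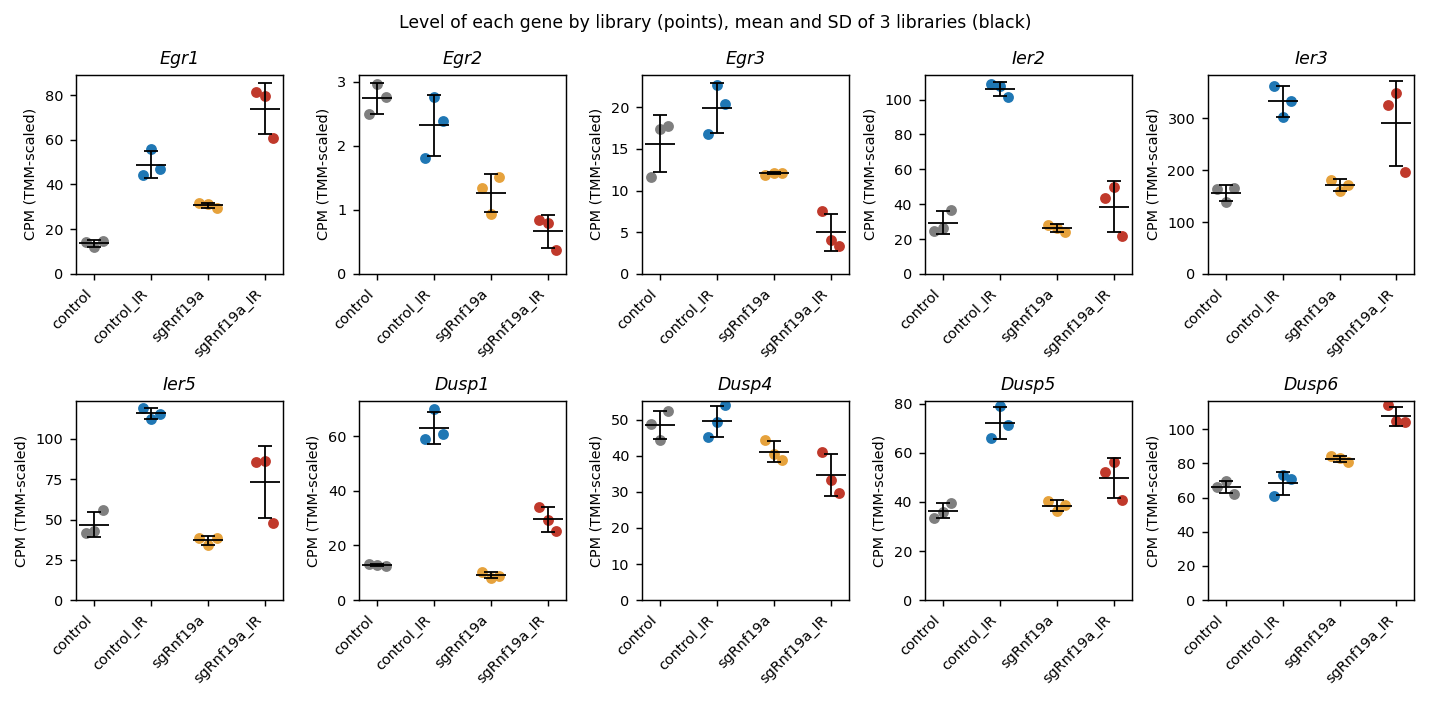
Scaled counts (CPM, by TMM, linear axis from 0) of the 10 genes, 1 panel a gene, with 1 point per library and the mean ± SD of the 3 libraries in each of the 4 groups. Dusp1 sits at 12.7 to 13.2 CPM in control and 58.9 to 69.8 CPM in IR-treated control libraries, while Egr3 and Egr2 are lowest in IR-treated sgRnf19a libraries.

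The response of control cells to IR was the first comparison. Egr1, Ier2, Ier3, Ier5, Dusp1 and Dusp5 rose, none of the members fell, and Egr2, Egr3, Dusp4 and Dusp6 did not pass the test (edgeR's quasi-likelihood test, adjusted p under 0.05 over all genes tested). Across all genes tested 22.2% were higher and 25.7% lower, and the members' median log2 fold change was 1.04 against -0.02 for all genes. After the length and GC correction 5 members were higher and 0 lower, with 21.5% and 20.9% of all genes, and the members' median was 0.52. At an unadjusted p under 0.05 no member was lower either, and DESeq2 called 6 higher and 0 lower. On the authors' FPKM scale, limma on log2(FPKM + 1) called 6 higher and 3 lower (Egr2, adjusted p = 0.0277, Dusp4, 0.0369, and Dusp6, 0.0212), and with a pseudocount of 0.1 it called 6 and 2. On that scale 16.6% of all genes were higher and 47.3% lower after IR, with a median of -0.34.

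The second comparison was the response of sgRnf19a cells to IR. Egr1, Ier3, Ier5, Dusp1 and Dusp6 rose and Egr3 fell, against 18.0% of all genes higher and 17.6% lower. The members' median log2 fold change was 0.47 against -0.02 for all genes. Without IR-treated sgRnf19a library 4, which had the highest ratio of long to short transcripts of its group, 7 members were higher and 1 lower, since Ier2 and Dusp5 then passed. With the correction 3 were higher (Egr1, Ier5 and Dusp1) and 3 lower (Egr2, Egr3 and Dusp4), with 15.1% and 21.7% of all genes, and the members' median was 0.11 against -0.13 for all genes. On log2(FPKM + 1) limma called 2 higher (Egr1 and Dusp1) and 3 lower (Egr2, Egr3 and Dusp4), with 14.2% of all genes higher, 49.4% lower and a median of -0.40, and the calls of Ier3 and Ier5 were lost (adjusted p = 0.235 and 0.0721).

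The third comparison set sgRnf19a against control cells without IR. Egr1 rose, and none of the other 9 members passed the test. This was 1 member higher and 0 lower, against 3.02% and 3.20% of all genes. At an unadjusted p under 0.05, 2 members were higher and 2 lower, and DESeq2 called 2 higher and 2 lower, adding Egr2, Dusp1 and Dusp6. With the correction 1 member was higher and 0 lower, with 4.74% and 3.84% of all genes.

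The fourth comparison set the guides side by side after IR. Egr1 and Dusp6 were higher in sgRnf19a cells, and Egr2, Egr3, Ier2, Ier5, Dusp1, Dusp4 and Dusp5 were lower, while Ier3 did not pass. Of all genes 21.0% were higher and 12.8% lower, and the members' median log2 fold change was -0.60 against 0.07 for all genes. The correction left 2 higher and 5 lower, with 12.1% and 16.8% of all genes, and the members' median at -0.42. Each comparison shares libraries with others: the IR-treated control libraries enter this comparison and the first.

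**Figure D2:**
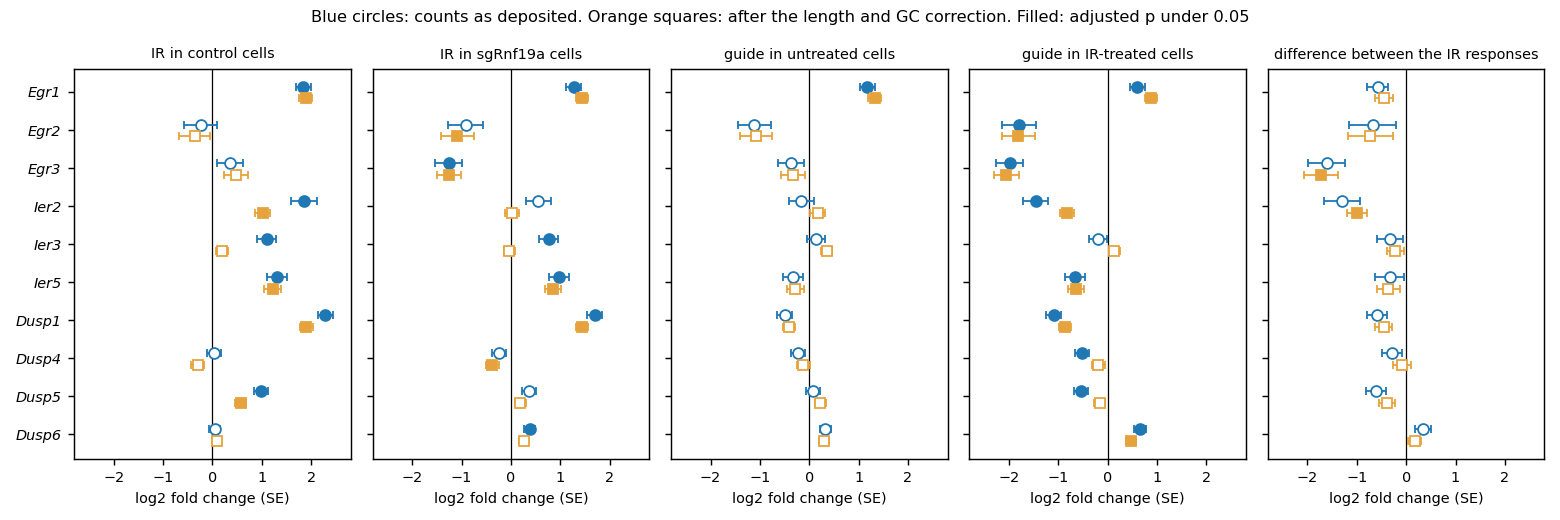
Log2 fold change (x axis, ± SE) of each of the 10 genes in the 5 comparisons, from the deposited counts (blue circles) and after the length and GC correction (orange squares), with filled marks for edgeR adjusted p under 0.05. Dusp1 is 2.29 and Egr1 1.84 higher after IR in control cells, and Egr3 is 1.99 lower with sgRnf19a after IR.

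Among the EGR genes, Egr1 encodes the best-known member, a factor that binds GC-rich sites and whose own targets include its co-repressors Nab1 and Nab2. Its level was 14.4, 11.9 and 14.6 CPM in control libraries and 44.1, 55.8 and 46.9 CPM in IR-treated control libraries. In sgRnf19a cells it was 31.6, 31.1 and 29.3 CPM without IR and 81.5, 79.7 and 60.7 CPM after it. No pair of groups overlapped, and the order was control, sgRnf19a, IR-treated control and IR-treated sgRnf19a. The log2 fold change after IR was 1.84 (SE 0.16, adjusted p = 2.48e-05) in control and 1.27 (SE 0.15, adjusted p = 0.000136) in sgRnf19a cells. With the guide it was 1.17 (2.25-fold, SE 0.15, adjusted p = 0.000505) without IR and 0.60 (SE 0.15, adjusted p = 0.0109) after IR. The last call was lost without IR-treated control library 1 (0.52, adjusted p = 0.0550), and with the correction the difference after IR was 0.88.

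Egr3 encodes an EGR factor known for its roles in lymphocytes and in muscle spindles. Its level was 11.7, 17.4 and 17.8 CPM in control and 16.8, 22.7 and 20.3 CPM in IR-treated control libraries, 2 ranges that overlapped. In sgRnf19a libraries it was 11.9, 12.1 and 12.1 CPM, and after IR 7.54, 4.11 and 3.41 CPM, below every other library. Egr3 thus fell after IR in sgRnf19a cells (log2 fold change -1.26, SE 0.27, adjusted p = 0.0042), where Egr1 rose. In control cells its change of 0.35 did not pass (SE 0.27, adjusted p = 0.306). After IR it was 3.96-fold lower in sgRnf19a than in control cells (-1.99, SE 0.28, adjusted p = 0.00052), and without IR the difference was -0.37 with a 95% interval of -0.90 to 0.15.

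Egr2, the EGR factor known for hindbrain and Schwann cell development, was the least abundant member. It was at 2.49, 2.97 and 2.77 CPM in control and 1.81, 2.75 and 2.39 CPM in IR-treated control libraries, which overlapped. In sgRnf19a libraries it was 1.33, 0.935 and 1.52 CPM without IR and 0.835, 0.794 and 0.373 CPM after it, both below every control library. After IR it was 3.47-fold lower in sgRnf19a than in control cells (log2 fold change -1.80, SE 0.35, adjusted p = 0.00336). The IR-treated sgRnf19a libraries held only 36, 23 and 14 Egr2 counts, where 1 read pair was worth about 4 counts. Without IR the difference of -1.12 (SE 0.33) had an adjusted p of 0.0775. The change after IR in sgRnf19a cells, -0.92 (SE 0.35), had an adjusted p of 0.0585, and with the correction Egr2 fell by 1.09 (adjusted p = 0.0226).

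A ratio of 2 genes within a library does not depend on how libraries are scaled. The FPKM ratio of Egr1 to Egr3 was 1.21, 0.675 and 0.807 in control libraries and 2.59, 2.42 and 2.27 in IR-treated control libraries. It was 2.61, 2.53 and 2.38 in sgRnf19a libraries and 10.6, 19.2 and 17.7 in IR-treated sgRnf19a libraries. The control libraries were thus lowest, the IR-treated control and untreated sgRnf19a libraries overlapped, and the IR-treated sgRnf19a libraries were far above all others. The ratio of Egr1 to Egr2 ran in the same direction, with means of 3.83 ± 0.688 (SD, n = 3) in control, 16.4 ± 2.11 in IR-treated control, 19.4 ± 5.53 in sgRnf19a and 94.1 ± 31.5 in IR-treated sgRnf19a libraries. The last of these means rests on Egr2 counts of 36, 23 and 14. The ratio of Egr3 to Egr2 stayed between 4.39 ± 0.669 and 7.74 ± 2.08 in the 4 groups.

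**Figure D3:**
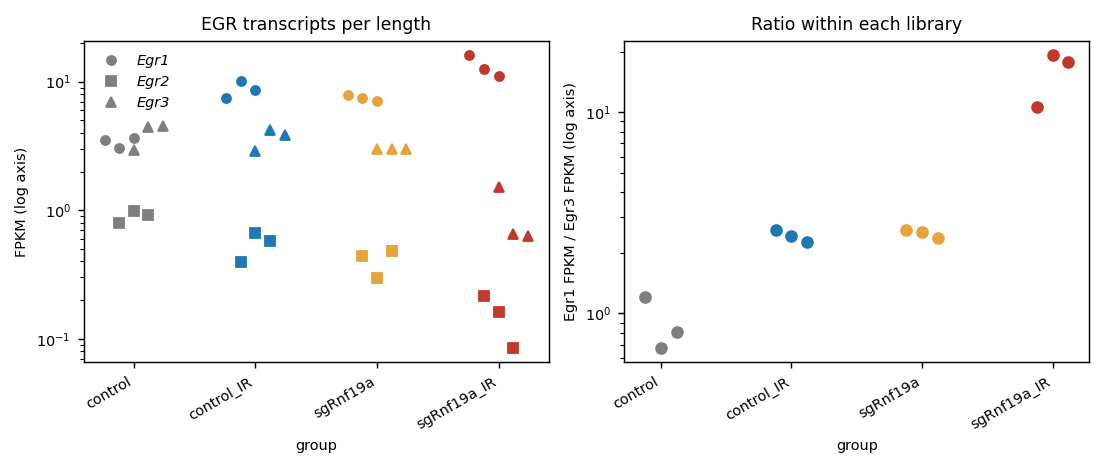
FPKM of Egr1, Egr2 and Egr3 and the FPKM ratio of Egr1 to Egr3, both on log axes, in each of the 12 libraries by group. The ratio is 0.675 to 1.21 in control libraries, 2.27 to 2.61 in IR-treated control and in sgRnf19a libraries, and from 10.6 to 19.2 in IR-treated sgRnf19a libraries.

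Of the IER genes, Ier2 encodes a small nuclear regulator. It was at 24.6, 26.6 and 36.9 CPM in control libraries and 109, 108 and 102 CPM in IR-treated control libraries. With sgRnf19a it was 28.2, 26.5 and 23.8 CPM without IR and 43.8, 49.8 and 21.9 CPM after it. The IR-treated control libraries stood above all others, whereas the IR-treated sgRnf19a libraries overlapped the untreated ones because library 4 lay below them. Ier2 rose after IR in control cells (log2 fold change 1.85, SE 0.26, adjusted p = 0.00018), and by 1.02 with the correction. In sgRnf19a cells the change was 0.56 (SE 0.26, adjusted p = 0.111), or 0.83 (adjusted p = 0.000913) without library 4. With the correction the change in sgRnf19a cells was 0.026 (adjusted p = 0.912). After IR, Ier2 was 2.76-fold lower in sgRnf19a than in control cells (-1.46, SE 0.26, adjusted p = 0.00199) and 1.77-fold lower with the correction.

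Ier3, known as a stress-induced regulator of survival that ERK phosphorylates, was the most abundant member per length. It was at 163, 138 and 166 CPM in control libraries and 363, 303 and 333 CPM in IR-treated control libraries. The sgRnf19a libraries held 182, 160 and 172 CPM without IR and 326, 349 and 197 CPM after it. IR-treated libraries lay above untreated ones in both kinds of cells, and the IR-treated groups of the 2 guides overlapped. On the deposited counts it rose after IR by a log2 fold change of 1.10 (SE 0.19, adjusted p = 0.000594) in control and 0.76 (SE 0.19, adjusted p = 0.00882) in sgRnf19a cells. Its transcript is the shortest of the members, at 1.13 kb, and with the length and GC correction both calls ended, at 0.19 (adjusted p = 0.227) and -0.03 (adjusted p = 0.879). Between the guides it differed by 0.14 without IR and -0.19 after IR, and neither passed the test (95% intervals -0.23 to 0.51 and -0.57 to 0.18).

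Ier5, a regulator known to bring the phosphatase PP2A to heat shock factor, was at 41.9, 42.8 and 55.7 CPM in control libraries and 119, 112 and 116 CPM in IR-treated control libraries. In sgRnf19a cells it was 38.8, 34.1 and 38.8 CPM without IR and 86.0, 86.3 and 47.6 CPM after it. The groups did not overlap within the control cells or within the sgRnf19a cells. It rose after IR in both kinds of cells (log2 fold change 1.31, SE 0.21, adjusted p = 0.000346, and 0.98, SE 0.21, adjusted p = 0.00365), and both calls held with the correction, at 1.22 and 0.86. After IR it was lower in sgRnf19a than in control cells (-0.66, SE 0.21, adjusted p = 0.0287), a call that was lost without any 1 of the 3 IR-treated control libraries. Without IR the difference was -0.33 (95% interval -0.74 to 0.07).

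Among the phosphatases, Dusp1 encodes a nuclear enzyme that acts mainly on p38 and JNK and also on ERK. It was at 13.2, 12.9 and 12.7 CPM in control libraries and 58.9, 69.8 and 60.6 CPM in IR-treated control libraries. With sgRnf19a it was 10.3, 8.23 and 8.84 CPM without IR and 34.2, 29.4 and 25.2 CPM after it. No pair of groups overlapped, and each sgRnf19a group lay below the matching control group. Dusp1 was 4.88-fold higher after IR in control cells (log2 fold change 2.29, SE 0.15, adjusted p = 5.67e-06), the highest fold of the members in that comparison, and 1.70 higher in sgRnf19a cells (SE 0.15, adjusted p = 2.27e-05). After IR it was 2.13-fold lower in sgRnf19a than in control cells (-1.09, SE 0.15, adjusted p = 0.00036), and without IR the difference of -0.50 (SE 0.15) had an adjusted p of 0.0707. The correction kept the 3 calls, at 1.90, 1.45 and -0.87. Ergic1, which overlaps Dusp1 on the opposite strand and held 86944 counts in all against 14675 for Dusp1, had log2 fold changes of 0.15 after IR in control and -0.15 in sgRnf19a cells, and of -0.62 (adjusted p = 0.0176) with the guide after IR. The part of Ergic1 reads in the Dusp1 counts was not tested.

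Dusp5, a nuclear phosphatase specific to ERK whose promoter window holds the pair of CArG boxes, was at 33.5, 36.0 and 39.7 CPM in control and 66.1, 78.8 and 71.4 CPM in IR-treated control libraries. In sgRnf19a cells it was 40.3, 36.1 and 38.9 CPM without IR and 52.1, 56.2 and 40.8 CPM after it. The IR-treated control libraries stood above all others. It rose after IR in control cells (log2 fold change 0.99, SE 0.14, adjusted p = 0.000206), and by 0.57 with the correction. In sgRnf19a cells the change of 0.37 had an adjusted p of 0.0620, and it was 0.49 (adjusted p = 0.00424) without library 4. With the correction the change in sgRnf19a cells was 0.19 (adjusted p = 0.216). The difference between guides after IR, -0.54 (adjusted p = 0.0137), ended with the correction (-0.16, adjusted p = 0.315) and without IR-treated control library 4.

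Dusp4, a nuclear phosphatase for ERK and JNK, was at 48.9, 44.4 and 52.3 CPM in control and 45.3, 49.4 and 53.9 CPM in IR-treated control libraries. The sgRnf19a libraries held 44.3, 40.4 and 38.8 CPM without IR and 41.1, 33.3 and 29.7 CPM after it. Both sgRnf19a groups lay below both control groups, untreated ones by a narrow gap, and each pair of untreated and IR-treated groups overlapped. IR gave 0.03 in control cells (95% interval -0.25 to 0.31) and -0.25 in sgRnf19a cells (-0.53 to 0.04), and neither passed. After IR it was lower in sgRnf19a than in control cells (log2 fold change -0.51, adjusted p = 0.0177), but not with the correction (-0.19, adjusted p = 0.292) or without IR-treated control library 5.

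Dusp6 encodes the cytoplasmic phosphatase specific to ERK, and its RNA is widely used as a readout of ERK activity. It was at 66.3, 69.7 and 62.3 CPM in control libraries and 60.6, 73.3 and 70.8 CPM in IR-treated control libraries, which overlapped. With sgRnf19a it was 84.3, 82.8 and 80.8 CPM without IR and 114, 105 and 104 CPM after it. Every sgRnf19a library lay above every control library, and the IR-treated ones were highest. After IR it was 1.58-fold higher in sgRnf19a than in control cells (log2 fold change 0.66, SE 0.12, adjusted p = 0.00186), and 0.47 higher with the correction. Without IR the difference was 0.32 (95% interval 0.10 to 0.55 before adjustment, adjusted p = 0.150). Its rise after IR in sgRnf19a cells, 0.38 (SE 0.11, adjusted p = 0.0223), was lost with the correction (0.26, adjusted p = 0.0516) and in 4 of 6 fits that each left out 1 library. The FPKM ratio of Dusp6 to Dusp4 was 1.20 ± 0.166 (SD, n = 3) in control, 1.21 ± 0.0804 in IR-treated control, 1.76 ± 0.0824 in sgRnf19a and 2.75 ± 0.317 in IR-treated sgRnf19a libraries. The ratio of Dusp1 to Dusp6 was 0.185 ± 0.00867, 0.877 ± 0.0591, 0.104 ± 0.0110 and 0.259 ± 0.0280 in the same order, so it was highest in IR-treated control cells.

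**Figure D4:**
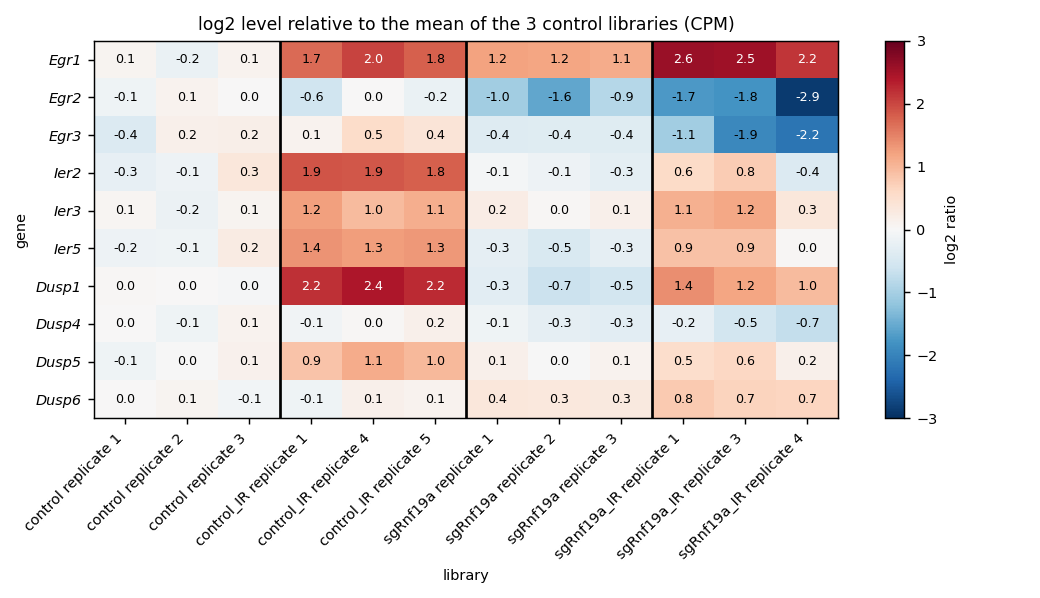
Log2 CPM of the 10 genes (rows) in the 12 libraries (columns, by group), relative to the mean of the control libraries. Egr1 is above the control mean in every other group, and Egr2 and Egr3 are below it in every IR-treated sgRnf19a library.

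Whether the response to IR differed between the 2 kinds of cells was tested by the difference of the responses. No member passed the test, against 0.544% of all genes with a higher and 0.137% with a lower response in sgRnf19a cells. Egr3 (-1.61, SE 0.38, adjusted p = 0.0745) and Ier2 (-1.29, SE 0.36, adjusted p = 0.102) had the smallest p, and 5 members, all with a smaller or more negative response in sgRnf19a cells (Egr1, Egr3, Ier2, Dusp1 and Dusp5), had an unadjusted p under 0.05. With the correction 2 members were lower and 0 higher, against 1.12% and 0.925% of all genes: Egr3 at -1.72 (adjusted p = 0.0265) and Ier2 at -0.99 (adjusted p = 0.0324). DESeq2 also called 2 members lower, Egr3 (adjusted p = 0.00469) and Ier2 (adjusted p = 0.0187). Leaving out 1 library at a time gave 0 to 3 members, with 1 without IR-treated sgRnf19a library 1, 3 without library 3 and 1 without library 4. The members' median difference was -0.58 against 0.09 for all genes.

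Other genes of these families and of the pathway are given as counts, beside these shares of all genes tested. After IR in control cells 22.2% were higher and 25.7% lower (21.5% and 20.9% with the correction). After IR in sgRnf19a cells the shares were 18.0% and 17.6% (15.1% and 21.7%). With the guide after IR they were 21.0% and 12.8% (12.1% and 16.8%). The lists were not tested against these shares. Of 13 other DUSP genes, 7 were higher and 2 lower after IR in control cells, and 3 were higher and 1 lower in sgRnf19a cells (5 and 1 without IR-treated sgRnf19a library 4, 1 and 1 without library 3). After IR, 1 was higher and 8 were lower in sgRnf19a than in control cells, with a median log2 fold change of -0.61. Dusp14, an atypical phosphatase, was 1.28 higher after IR in control cells on the log2 scale (SE 0.16) and 0.61 lower with the guide after IR, and Dusp9, a cytoplasmic ERK phosphatase, was 1.58 higher and 1.77 lower. Of 4 tested genes among the remaining EGR and IER relatives and the NAB co-repressors, 2 were higher and 1 lower after IR in control cells (1 and 1 with the correction). The lower one was Nab1, a co-repressor of EGR factors, at -1.72 in control and -1.01 in sgRnf19a cells, and it was 1.01 higher with the guide after IR.

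The 8 AP-1 genes, partners of the members among the immediate early genes, were all higher after IR in control cells, and 5 were higher and 0 lower in sgRnf19a cells (7 and 0 without IR-treated sgRnf19a library 4). Jun rose by 3.43 in control and 1.97 in sgRnf19a cells on the log2 scale, and the difference of the responses passed the test (-1.47). Fos rose by 1.47 and 1.01, and Atf3, which stress induces, by 3.49 and 4.12. With the guide after IR, 4 AP-1 genes were lower and 0 higher. None moved the other way in either comparison at an unadjusted p under 0.05 or by DESeq2, while with the correction 5 were higher and 1 lower after IR in sgRnf19a cells, and 1 higher and 2 lower with the guide after IR. Of 30 other immediate early genes 14 were higher and 2 lower after IR in control cells, 13 were higher and 3 lower in sgRnf19a cells, and 4 were higher and 10 lower with the guide after IR.

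The kinase cascade upstream of the members was counted in the same way, to be read beside the same shares of all genes (22.2% higher and 25.7% lower after IR in control cells, 21.0% and 12.8% with the guide after IR). Of 21 ERK cascade genes, 5 were higher and 11 lower after IR in control cells, but 5 and 5 with the correction, and 9 were higher and 2 lower with the guide after IR, but 2 and 5 with the correction. Of 13 ERK feedback and output genes, a list that holds the Sprouty genes and the ETV factors, 2 were higher and 3 lower after IR in control cells and 3 higher and 5 lower with the guide after IR (1 and 4 with the correction). Of 14 p38 and JNK cascade genes tested, 2 were higher and 6 lower after IR in control cells, and 4 higher and 3 lower with the guide after IR (2 and 4 with the correction). Of 8 genes for serum response factor, its partners and CREB factors, 1 was higher and 4 lower after IR in control cells, and 3 higher and 2 lower with the guide after IR (2 and 0 with the correction). After IR in sgRnf19a cells, where 18.0% of all genes were higher and 17.6% lower, the ERK cascade had 1 higher and 9 lower. In that comparison the ERK feedback and output list had 0 and 4, the p38 and JNK list 0 and 5, and the serum response factor list 1 and 3.

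The genes whose levels ran most like Egr1 over the 12 libraries, which fall into 4 groups and share depth and scaling, were Gpr89 (Pearson r = 0.991), Mmp10 (0.988), Isg15 (0.985), Afp (0.980) and Scnm1 (0.975). For Dusp6 they were Cnksr1 (0.976), Nlrc5 (0.975), F11r (0.974), Cct3 (0.967) and Mppe1 (0.966). These r values over 12 libraries are descriptions among 10765 genes.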

How the data were processed

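RNA was taken from cell pellets, ribosomal RNA was depleted, and strand-marked libraries were read as short pairs, per the labels' protocols. The submitters' processing notes name Bowtie2, HTSeq, DESeq2, mm10 and GRCm39, without versions or roles. The authors deposited estimated counts per gene, as whole numbers with no normalization, and FPKM values in a second table. Low counts of genes over 2 kb piled up at multiples of 4 (5958 values of 4 against 989 of 3 and 1000 of 5), so 1 read pair was worth about 4 counts. The deposited FPKM table repeats the counts in 12 further columns, which were not used. IR columns were placed by genotype and by elimination, since they carry no word for IR, and their numbers are not the labels' replicate numbers. Of 29456 gene IDs shared with GENCODE M21, 25765 had the same start and end, so coordinates are GRCm38.

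Counts were fitted in edgeR 4.0.16 (R 4.3.3; TMM scaling, quasi-likelihood F-test, robust) over all 12 libraries and 4 group means, after a filter (minimum count 10, total 15). Benjamini-Hochberg adjustment ran over 18183 genes, and adjusted p under 0.05 was a call. SE is the log2 fold change divided by the square root of F, and intervals are 1.96 SE. The length and GC correction removed per-library splines (5 degrees of freedom) for 18159 genes. Scripts were tested on simulated data. DESeq2 1.42.0, limma 3.58.1, other scalings, no filter, counts divided by 4, the compared groups alone, FPKM with pseudocounts of 1 and 0.1, and leaving out each library were alternatives. The members and lists were chosen with earlier results of these data known. All members are named in each comparison, with Jun, Fos, Atf3 and Rnf19a, and from each other list only called genes with the smallest p. Summed counts were 34262483 to 71265107 per library, and the read pairs behind them were fewer, since 1 read pair was worth about 4 counts.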

Additional observations from a re-analysis of the deposited data

How the results depend on the processing

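Calls in both directions together, the member counts in the 2 IR responses stayed within 1.5 times of those reported under every alternative run, but the directions did not: limma on log2(FPKM + 1) gave 6 higher and 3 lower in control cells (against 6 and 0) and 2 and 3 in sgRnf19a cells (against 5 and 1), and log2(FPKM + 0.1) gave 6 and 2, and 2 and 3. Leaving out 1 library gave 6 to 6 members in control and 5 to 8 in sgRnf19a cells. Without IR, the guide changed 1 member, against 4 with DESeq2, 2 with counts divided by 4, 4 with only the groups compared, and 2 with limma on log2(FPKM + 1). For the guide after IR, 9 members were called, against 5 with only the groups compared, and leaving out 1 library gave 7 to 9. For the difference of the responses, 0 were called, against 2 with the length and GC correction, 2 with DESeq2, and 0 to 3 without 1 library. Over all genes the difference was called for 124, against 372 with the correction, 1688 with DESeq2, 55 on log2(FPKM + 0.1), and 5 (without IR-treated control library 5) to 2624 (without IR-treated sgRnf19a library 3) when 1 library was left out. The guide without IR called 1131 genes, against 1766 with DESeq2, 2825 with only the groups compared and 3262 with the replicate block, and after IR 6140, against 2797 with only the groups compared.

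Replicate numbers did not pair the untreated groups (correlations of deviations -0.16, -0.01 and 0.03 for numbers 1, 2 and 3). With the replicate block 4 members were called for the guide in untreated cells. A block on column numbers called 6 for IR in sgRnf19a cells (numbers 1 and 3) and 5 for the guide after IR (numbers 1 and 4). Numbers of IR columns are not the labels' replicate numbers, so whether blocks on them match true pairs is not known. No paired analysis was possible because fewer than 2 numbers are shared for IR in control cells and for the difference of the responses.

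Signs turned for values that edgeR had not called, except where named. With the correction these were Dusp4 after IR in control cells (-0.30), Ier3 after IR in sgRnf19a cells (-0.029, called without the correction), Ier2 with the guide in untreated cells (0.17) and Ier3 with the guide after IR (0.13). Dusp4 after IR in control cells was -0.0011 with DESeq2, -0.0014 with DESeq2's size factors, -0.040 with no filter, -0.011 with only the groups compared, -0.43 on log2(FPKM + 1) and -0.46 on log2(FPKM + 0.1). Dusp6 after IR in control cells was -0.024 with no filter and -0.43 and -0.45 on the FPKM scales, and Egr3 was -0.10 and -0.12; on both FPKM scales the negative values of Dusp4 and Dusp6 were called. In sgRnf19a cells on the FPKM scales, Dusp5 was -0.095 and -0.10 and Dusp6, called on counts, was -0.078 and -0.081. The Egr2 difference of the responses was 0.018 on log2(FPKM + 1). Without 1 library, after IR in control cells, Dusp4 ran from -0.050 to 0.087 and Dusp6 from -0.022 to 0.12. Ier2 with the guide in untreated cells ran from -0.28 to 0.031, and Ier3 with the guide after IR from -0.35 to 0.023. The cause was not tested. On the FPKM scales the median of all genes was itself -0.34 and -0.45 after IR in control cells, and upper-quartile scaling moved it from -0.02 to 0.19.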
